A study of Mus musculus with 10 samples.

Results

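A set of 36 genes that mark microglia and macrophages was followed through the ventral hippocampus (vHpc) of ovariectomized (OVX) female mice. The members were chosen by name, as genes known from microglia or tissue macrophages. All 36 were among the 24421 gene symbols measured, and all 36 reached the mean of 0.5 CPM (the reads of a gene after scaling the library to 1000000 reads on genes) that was required for testing, as did 15081 genes in all. They were divided by role into 11 genes of homeostatic microglia, 12 receptors and signalling genes, 3 complement genes, 5 genes of lysosome, cytoskeleton and transcription, and 5 markers of perivascular or activated cells. RNA came from C57BL/6 mice that were wild type (WT) or carried 1 copy of the BDNF Met allele (heterozygous BDNF Val66Met knock-in, Het-Met). Every animal, controls included, had lost its ovaries at 70 to 80 days of age and then recovered for 2 weeks. For the next 6 weeks the cage water held either 17β-estradiol (E2 add-back, 300 nM, about 0.7 µg per day) in 0.1% ethanol or 0.1% ethanol alone (vehicle). RNA of 2 animals was pooled for a library. Of the 10 libraries, vehicle-treated WT mice gave 2 (replicates 1 and 3), E2-treated WT mice 2 (replicates 1 and 2), vehicle-treated Het-Met mice 3 and E2-treated Het-Met mice 3, all of them OVX. The methods of the study give 3 replicates per group.

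Microglia are the resident macrophages of the brain parenchyma. They survive on signals through the CSF1 receptor, and in undisturbed tissue they hold a homeostatic program, kept up by TGF-beta, that includes the purine receptor P2RY12, the fractalkine receptor CX3CR1 and TMEM119. When they are activated, this program is typically lowered while lysosomal, antigen-presenting and phagocytic genes, many of them acting through TREM2 and its adaptor TYROBP, are raised. Macrophages around vessels, in the meninges and in the choroid plexus share many of these genes but are marked by the mannose receptor MRC1 and by CD163 or LYVE1. Estradiol and the BDNF Met allele were varied here in whole tissue, so each value sums over all cells of the vHpc, and fewer cells of a type cannot be told apart from less RNA per cell.

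Together the members took between 919 and 1035 CPM per library, so that the library with the most held 1.13 times the amount of the library with the least. To set genes side by side, CPM was divided by the exon length of each gene in kilobases (kb). On this scale per length, the highest levels over the 10 libraries were those of C1qa (51.6 CPM per kb), which encodes a chain of the complement starter C1q, of Lgmn (50.5), which encodes the lysosomal protease legumain, of C1qb (50.04) and of Ctss (42.4), which encodes cathepsin S. P2ry12, at 22.1 CPM per kb, Csf1r, at 17.6, Cx3cr1, at 12.95, and Tmem119, at 9.11, came from the homeostatic set and the CSF1 receptor. The lowest levels per length were those of Ptprc (0.177 CPM per kb), the pan-leukocyte phosphatase CD45, Mrc1 (0.503), the transcription factor gene Irf8 (0.651) and Cd14 (0.844), the co-receptor for bacterial lipopolysaccharide. These last genes were named as the lowest, so that the homeostatic genes lay above them says nothing further. The perivascular or activated markers were not all below the homeostatic genes. Cd68 (9.49 CPM per kb) lay above Tmem119, and Lyz2 (4.51) above Olfml3 (4.45) and Siglech (4.05). Cd74 (3.55), Cd14 and Mrc1 lay below Siglech, the lowest homeostatic gene.

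Other cell types were read from their own markers. Markers of hippocampal neurons summed to between 6154 and 6792 CPM. The 6 markers of T and B cells were near the limit of counting, with at most 12 reads for a gene in a library, and so were the markers of neutrophils and monocytes, with at most 17 reads and 1 of 6 symbols missing from the table. Cd3e, of the T cell receptor complex, ranged from 0 to 6 reads, S100a8, of neutrophils, from 2 to 17, and Ccr2, of monocytes, from 6 to 14. A count of 0 allows up to 3 reads, between 0.129 and 0.151 CPM. Of the 10 genes listed for border-associated macrophages, 6 reached the mean for testing. The list summed to between 19.4 and 26.8 CPM, of which Stab1 alone averaged 14.95 CPM. The homeostatic microglial genes summed to 308 to 360 CPM, including Tgfbr1 at a mean of 34.1 CPM, which other cells also express. These sums were not divided by length and cover different genes, so they do not compare numbers of cells. Markers of the choroid plexus, which lies beside the vHpc in the ventricle, moved far more than any member: the 10 genes summed to between 149 and 1078 CPM in vehicle-treated WT, 1902 and 2508 in E2-treated WT, 1464 and 3259 in vehicle-treated Het-Met and 262 and 1551 in E2-treated Het-Met mice. A fit with the choroid plexus level as a covariate gives the value beside each comparison where it moved a count. For this fit and for libraries left out, only larger changes of a count, and those to or from 0, are given beside a comparison. The full ranges for libraries left out, with rises as well as falls, are given in the last section. The reads counted on genes numbered between 19820184 and 23267410 per library.

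**Figure D1:**
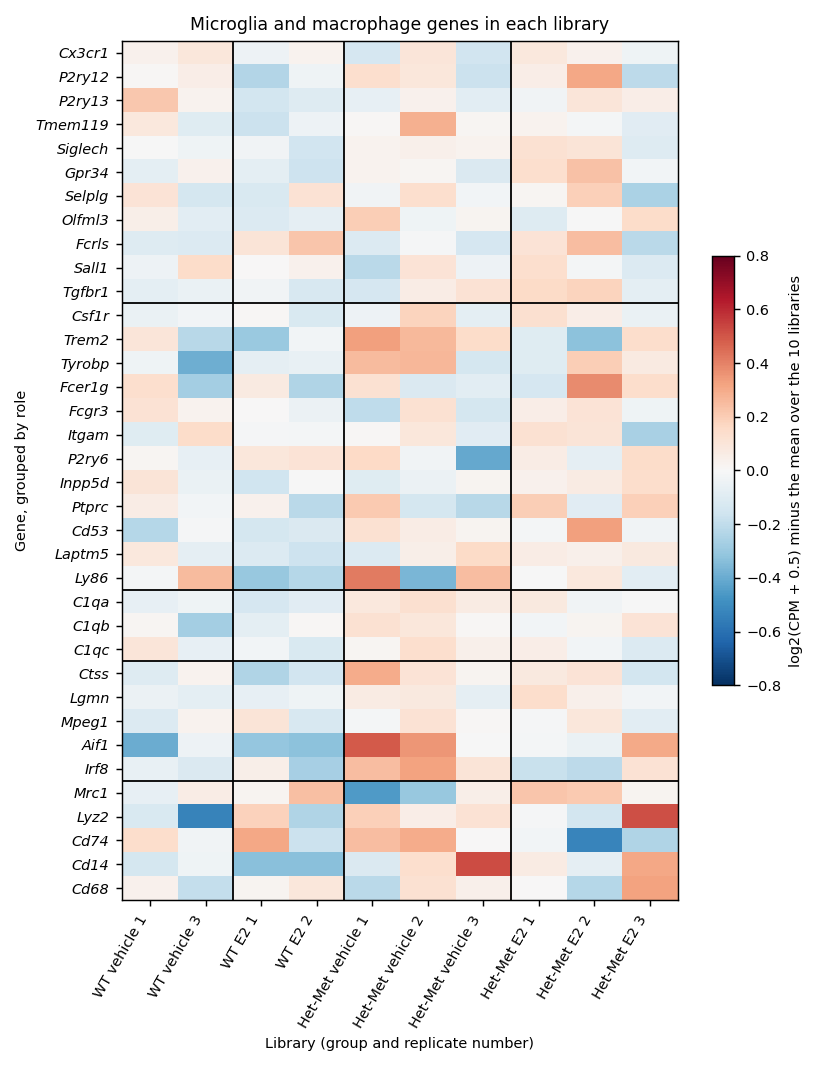
Each of the 36 members (rows, grouped by role with black lines) in each of the 10 libraries (columns), as log2(CPM + 0.5) minus the mean of that gene over all libraries, from blue (below its mean) to red (above). The homeostatic rows are pale in every library, none of them spanning more than 1.46-fold between the highest and the lowest library, and the strongest colours are in Aif1, Lyz2, Cd74 and Cd14.

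The members varied between libraries about as much as genes at large. The ratio of the highest to the lowest of the 10 libraries had a median of 1.38 over the members, with a range of 1.16 (Lgmn) to 2.21 (Lyz2), and 24 of 36 members (66.7%) stayed under 1.5. Over all genes tested the median was 1.35 and the share under 1.5 was 67.0%. By role, the median ratio was 1.295 for the homeostatic genes, 1.20 for complement, 1.46 for receptors and signalling, 1.46 for lysosome, cytoskeleton and transcription, and 1.89 for perivascular or activated markers. The choroid plexus markers had a median ratio of 11.4.

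The number of reads differed between roles as well, and its part in the spread was not tested. Csf1r rested on 2022 to 2282 reads per library, which alone gives a counting error of 2.15%, and P2ry12 on 1020 to 1506 reads (2.89%). Cd14 rested on 23 to 49 reads, a counting error of 18.0%, and Mrc1 on 46 to 89 reads, 12.1%. Intervals and errors from reads cover counting alone.

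The promoters of Ctss, C1qb and C1qc are shown because these genes are among the 5 members with the highest level per length and each holds a short word that was more frequent among the members than among all genes. RefSeq promoters (GRCm38.p6, 250 bases before to 50 after each gene's start) were at hand for 27 of the 36 members and for 27025 genes, and were searched on both strands. AGGAAGT, a form of the site of the myeloid factor PU.1 and its ETS relatives, was present for 11 of 27 members (40.7%) and for 10.7% of all genes. GAGGAA, which can overlap it by 5 letters, was present for 17 (63.0%) against 31.3%, and GAGGAAGT, which holds both, for 4 (14.8%) against 3.69%. The other words were nearer to the share of all genes: TATAAA (the TATA box) for 6 members (22.2%) against 15.7%, the ETS and IRF composite word for 1 (3.70%) against 3.16%, TGAGTCA (AP-1) for 1 (3.70%) against 5.95%, and the NF-kB consensus for 0 against 0.174%. These matches are descriptions of letters and were not tested. The sequences run in the direction of transcription, at chr3:95526536-95526835 on the plus strand, chr4:136886151-136886450 on the minus strand and chr4:136892865-136893164 on the minus strand, with capitals for ACTTCCT, which is AGGAAGT read on the other strand and occurs 1 time in each.
Ctss: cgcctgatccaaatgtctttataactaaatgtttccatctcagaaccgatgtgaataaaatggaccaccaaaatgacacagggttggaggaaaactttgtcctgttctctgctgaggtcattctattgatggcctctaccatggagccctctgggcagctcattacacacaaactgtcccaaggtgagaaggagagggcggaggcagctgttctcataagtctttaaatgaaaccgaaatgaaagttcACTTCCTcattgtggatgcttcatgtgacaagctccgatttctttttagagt
C1qb: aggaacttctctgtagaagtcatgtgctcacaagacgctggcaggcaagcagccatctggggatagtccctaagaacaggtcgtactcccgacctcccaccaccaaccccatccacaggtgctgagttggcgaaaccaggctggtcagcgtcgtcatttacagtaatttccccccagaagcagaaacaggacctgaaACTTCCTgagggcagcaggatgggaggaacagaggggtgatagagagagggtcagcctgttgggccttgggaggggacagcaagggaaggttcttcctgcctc
C1qc: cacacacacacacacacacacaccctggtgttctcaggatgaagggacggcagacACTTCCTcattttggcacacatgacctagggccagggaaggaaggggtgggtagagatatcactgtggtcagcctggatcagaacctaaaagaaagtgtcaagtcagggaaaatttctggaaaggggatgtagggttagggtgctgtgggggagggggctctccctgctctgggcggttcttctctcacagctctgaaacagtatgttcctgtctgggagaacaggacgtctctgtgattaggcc

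E2 add-back was first compared with vehicle in OVX WT mice, to ask how the hormone acts on the common genotype. In limma, with Benjamini-Hochberg adjustment over all 15081 genes, 0 of 36 members were called at an adjusted p under 0.05 and a fold change over 1.3, where 0.0133% of all genes tested were. Without adjustment 1 member, P2ry13, had a p under 0.05, against 4.04% of all genes. The median log2 difference (E2 minus vehicle) of the members was -0.05, against -0.003 for all genes. Of the members 11 were higher and 25 lower, where 7388 of 15081 genes were higher. The 95% interval of 18 of the 36 lay wholly within a 1.3-fold change in either direction, which 54% of all genes also reached. The lowest difference was that of Ly86 (-0.38) and the highest that of Lyz2 (0.30). The count was 0 without E2-treated WT replicate 1 or 2, and 2 without vehicle-treated Het-Met replicate 1 or 2 or E2-treated Het-Met replicate 3. With the choroid plexus level in the fit it was 3.

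In Het-Met mice, E2 add-back gave the same count of calls, 0 of 36, with 0% of all genes called. At an unadjusted p under 0.05 stood 4 members, where 5.45% of all genes passed: Cd74, Trem2 and Irf8 were lower and Mrc1 higher under E2. The members' median difference was 0.01 (all genes 0.004). Of the members 19 were higher and 17 lower, where 7806 of 15081 genes were higher. Intervals of 25 of the 36 lay within 1.3-fold, which 65.5% of all genes did. The count at unadjusted p was 1 without vehicle-treated Het-Met replicate 1, 2 without replicate 2, 1 without E2-treated Het-Met replicate 1 and 0 without replicate 2. A fit to fewer libraries also has less power, and the cause of these changes was not tested. With the choroid plexus level in the fit the count was 1.

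Under vehicle, Het-Met and WT mice were set side by side to ask what the Met allele does without E2. Again 0 of 36 members were called, against 0.00663% of all genes. At an unadjusted p under 0.05 stood 4 members, with 10.7% of all genes at that level, and all 4 were higher in Het-Met, a direction that 5.85% of all genes shared: Aif1, Tyrobp, C1qb and Lyz2. The members' median difference (Het-Met minus WT) was 0.06, against 0.02 for all genes, and 25 were higher and 11 lower, where 8333 of 15081 genes were higher. Intervals within 1.3-fold were found for 19 of 36 members and 52.6% of all genes. The count was 1 without vehicle-treated WT replicate 3, 0 without vehicle-treated Het-Met replicate 1 and 2 without replicate 2.

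Under E2, the same comparison of genotypes left 0 of 36 members called, against 0.0265% of all genes, and 3 at an unadjusted p under 0.05 (11.7% of all genes), all of them higher in Het-Met (6.29% of all genes): Aif1, Ctss and Laptm5. The members' median difference was 0.10, against 0.03 for all genes. It was above 0 for 30 members and below 0 for 6, where 8636 of 15081 genes were higher. For 18 of 36 members the interval stayed within 1.3-fold, as for 52.5% of all genes. The count was 0 without E2-treated WT replicate 1, 1 without E2-treated WT replicate 2 and 1 without vehicle-treated Het-Met replicate 2, a library that enters this comparison only through the shared spread. With the choroid plexus level in the fit it was 1.

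The interaction asks whether E2 acts differently in the 2 genotypes. It called 0 of 36 members (0.0729% of all genes) and gave 1 at an unadjusted p under 0.05, P2ry13 (5.42% of all genes). Averaged over genotypes, E2 called 0 members (0.00663% of all genes), and 1, Fcrls, had an unadjusted p under 0.05 (3.22%). That count was 0 without vehicle-treated Het-Met replicate 1, 3 without E2-treated Het-Met replicate 3, and 2 without E2-treated WT replicate 1, without vehicle-treated Het-Met replicate 2 or 3, and with the choroid plexus level in the fit. Averaged over treatments, Het-Met against WT called 0 members (0.0265%), and 6 had an unadjusted p under 0.05 (16.6% of all genes), all higher in Het-Met (9.33% of all genes): Aif1, Ctss, C1qa, Cd14, Tyrobp and C1qb. The members' median was 0.09 in this average (all genes 0.02), with 28 higher and 8 lower, where 8644 of 15081 genes were higher. The number at unadjusted p was 2 without E2-treated WT replicate 1 and 3 without replicate 2. For the interaction that number was 0 when E2-treated WT replicate 1, vehicle-treated Het-Met replicate 1 or 3, or E2-treated Het-Met replicate 2 or 3 was left out, and 2 without vehicle-treated Het-Met replicate 2 or E2-treated Het-Met replicate 1, and with the choroid plexus level in the fit. The 4 comparisons of pairs share groups with each other, so their values are not independent.

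**Figure D2:**
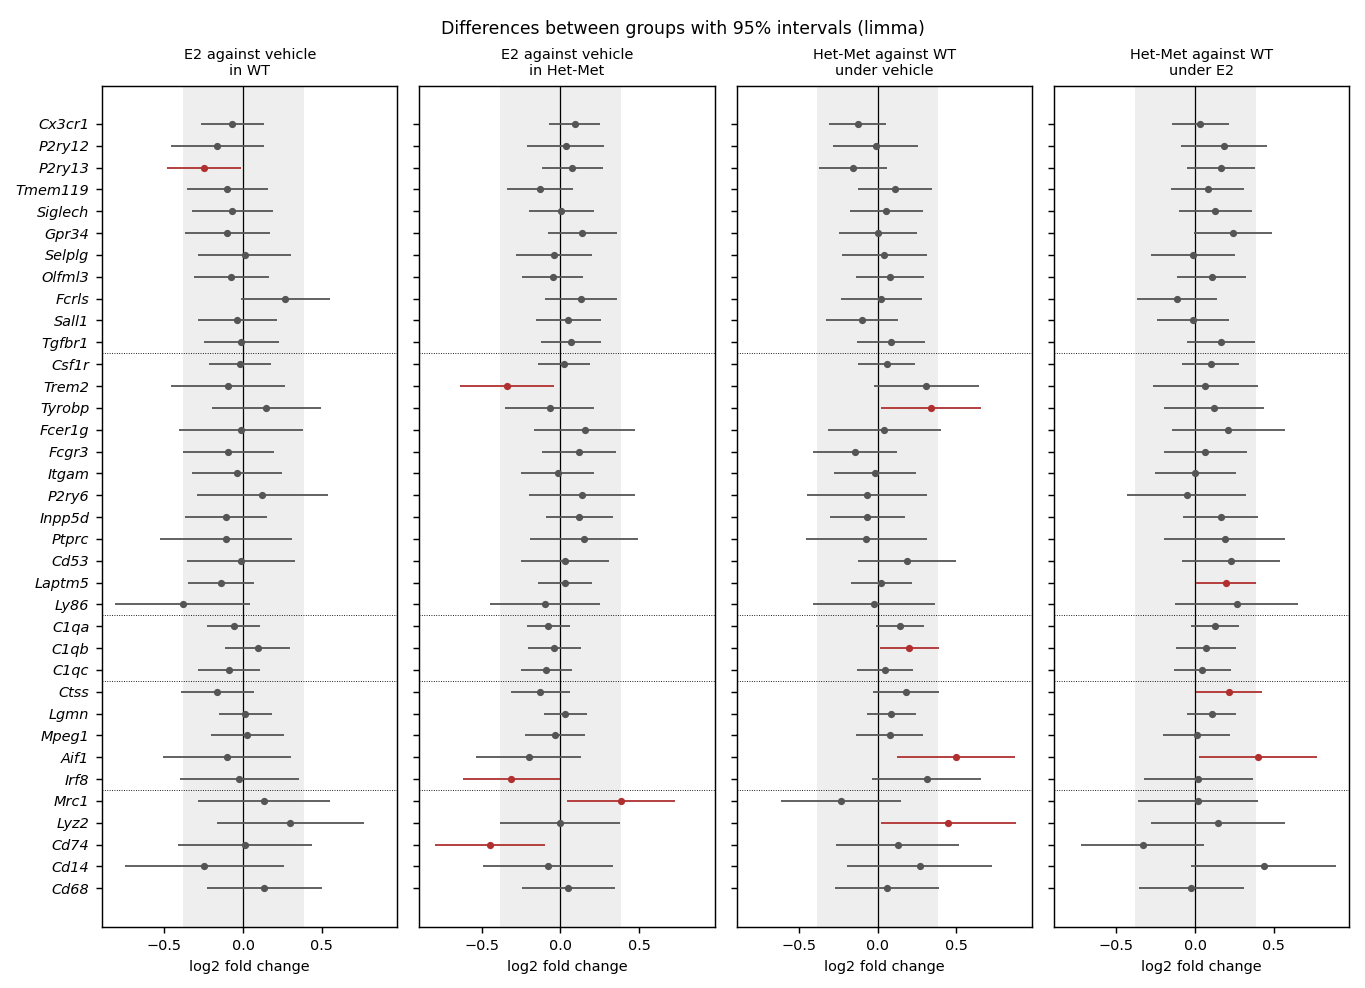
Differences of all 36 members in the 4 comparisons of pairs, as log2 fold change (points, log2(CPM + 0.5) scale) with 95% intervals (lines) from limma. Red marks an unadjusted p under 0.05, which 1, 4, 4 and 3 members reached from left to right, and the grey band spans a 1.3-fold change either way, inside which 18, 25, 19 and 18 intervals lay.

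The homeostatic genes were even across the libraries, and 11 of 11 stayed under a 1.5-fold range. P2ry12, the ADP receptor that guides microglial processes, had 56.3 and 58.1 CPM in vehicle-treated WT, 47.6 and 54.8 in E2-treated WT, 61.4, 59.7 and 49.7 in vehicle-treated Het-Met and 58.0, 69.4 and 48.4 in E2-treated Het-Met libraries. The E2-treated WT libraries lay below the vehicle-treated WT libraries, and the Het-Met groups overlapped with each other and with WT. Its log2 difference for E2 was -0.16 in WT (95% interval -0.46 to 0.13) and 0.03 in Het-Met (-0.21 to 0.28), with limma adjusted p-values of 1.00 and 0.991.

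Cx3cr1, the receptor for the neuronal chemokine fractalkine, had 59.7 and 61.9 CPM in vehicle-treated WT, 56.7 and 59.4 in E2-treated WT, 53.0, 62.4 and 52.3 in vehicle-treated Het-Met and 61.7, 59.7 and 56.8 in E2-treated Het-Met libraries. Vehicle-treated Het-Met mice held its highest library (replicate 2) and its lowest (replicate 3), and only the WT groups did not overlap under E2 and vehicle. All 4 intervals lay within 1.3-fold, and the one reaching farthest from 0 ran from -0.31 to 0.06 for Het-Met against WT under vehicle. Tmem119, a membrane protein found in the brain mainly on microglia, had 22.3 and 19.6 CPM in vehicle-treated WT, 18.6 and 20.5 in E2-treated WT, 21.2, 25.7 and 21.2 in vehicle-treated Het-Met and 21.4, 20.8 and 19.7 in E2-treated Het-Met libraries. The groups overlapped in all 4 comparisons, and its 4 intervals, too, lay within 1.3-fold.

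P2ry13, a second ADP receptor beside P2ry12, was the only homeostatic gene with an unadjusted p under 0.05 in a comparison of pairs or in the interaction. It had 21.1 and 18.5 CPM in vehicle-treated WT, 16.3 and 16.8 in E2-treated WT, 17.3, 18.6 and 17.1 in vehicle-treated Het-Met and 17.7, 19.4 and 18.8 in E2-treated Het-Met libraries. Both E2-treated WT libraries were below every other library. The log2 difference for E2 was -0.25 ± 0.11 (SE) in WT (limma, unadjusted p = 0.041, adjusted p = 1.00) and 0.08 ± 0.09 in Het-Met, and the interaction was 0.32 ± 0.14 (unadjusted p = 0.039, adjusted p = 0.854). P2ry12 and P2ry13 lie inside Med12l on the opposite strand and share 9 and 0 bases of exon with it. Whether the counting used strand is not given in the sources used here. Med12l ran from 38.1 to 58.4 CPM. Fcrls, an Fc receptor-like scavenger receptor gene, had 20.6 and 20.5 CPM in vehicle-treated WT and 23.9 and 25.9 in E2-treated WT libraries, which did not overlap, and 20.5, 22.0 and 20.1 against 23.9, 26.4 and 19.0 in Het-Met libraries, which did. Its difference averaged over genotypes was 0.20 ± 0.09 (limma, unadjusted p = 0.034, adjusted p = 0.999).

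The other 6 homeostatic genes spanned 1.21-fold to 1.37-fold between their highest and lowest libraries and had no unadjusted p under 0.05 in any comparison. Their means over the 10 libraries were 13.7 CPM for Siglech, a sialic acid lectin, 12.99 for Gpr34, a lysophospholipid receptor, 31.0 for Selplg, a selectin ligand, 27.4 for Olfml3, a secreted matrix protein, 33.7 for Sall1, the transcription factor that sets microglial identity, and 34.1 for Tgfbr1, the TGF-beta receptor kinase, which other cells of the tissue also express.

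Among receptors and signalling genes, Csf1r, on which microglial survival rests, had 97.9 and 100.2 CPM in vehicle-treated WT, 102 and 93.5 in E2-treated WT, 98.8, 115 and 96.2 in vehicle-treated Het-Met and 111, 105 and 97.9 in E2-treated Het-Met libraries. Its groups overlapped throughout, and all 4 intervals lay within 1.3-fold. The ligands of this receptor were steady as well, at 35.3 CPM for Csf1 and 38.8 CPM for Il34 over the 10 libraries, and neither had an unadjusted p under 0.05. Csf1r shares 873 bases of exon with Hmgxb3 on the opposite strand.

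Trem2, a lipid-sensing receptor, had 10.46 and 8.28 CPM in vehicle-treated WT, 7.85 and 9.58 in E2-treated WT, 12.4, 11.8 and 10.9 in vehicle-treated Het-Met and 9.10, 7.65 and 10.8 in E2-treated Het-Met libraries. All 3 vehicle-treated Het-Met libraries were above every other library, the lowest of them by a small margin over an E2-treated Het-Met library. The log2 difference for E2 in Het-Met was -0.34 ± 0.14 (limma, unadjusted p = 0.028, adjusted p = 0.871), that for Het-Met against WT under vehicle was 0.31 ± 0.16 (unadjusted p = 0.066, adjusted p = 0.492), and the interaction was -0.24 ± 0.22 (adjusted p = 1.00). Tyrobp, the adaptor through which TREM2 signals, had 12.4 and 9.61 CPM in vehicle-treated WT, 12.1 and 12.2 in E2-treated WT, 15.3, 15.4 and 11.5 in vehicle-treated Het-Met and 11.9, 14.7 and 13.4 in E2-treated Het-Met libraries. The vehicle groups overlapped, since vehicle-treated Het-Met replicate 3 was below vehicle-treated WT replicate 1. Its difference between genotypes under vehicle was 0.34 ± 0.15 (limma, unadjusted p = 0.038, adjusted p = 0.449), between 0.16 and 0.51 when single libraries were left out.

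Laptm5, a lysosomal protein of blood-lineage cells, had 35.0 and 33.7 CPM in E2-treated WT and 39.5, 39.0 and 39.9 in E2-treated Het-Met libraries, which did not overlap, against 40.1 and 35.98 in vehicle-treated WT and 35.0, 39.1 and 42.1 in vehicle-treated Het-Met libraries, which did. Under E2 the difference between genotypes was 0.20 ± 0.09 (limma, unadjusted p = 0.046, adjusted p = 0.424). Of the remaining 8 genes of this role, none had an unadjusted p under 0.05: the Fc receptor chain Fcer1g (mean 10.1 CPM), the Fc receptor Fcgr3 (10.8), the integrin chain Itgam (24.2), the UDP receptor P2ry6 (3.58), the lipid phosphatase Inpp5d (12.2), Ptprc (3.24), the tetraspanin Cd53 (6.61) and Ly86 (10.9), a partner of a Toll-like receptor relative. Itgam shares 3450 bases of exon with a gene model on the same strand, and Fcgr3 has a close relative, Fcgr2b (2.86 CPM), so reads of these may be split.

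The 3 complement genes lie side by side on chromosome 4 (mm10, C1qb at 136880129 to 136886187, C1qc at 136889804 to 136893065 and C1qa at 136895917 to 136898803, all on the minus strand), and their products are the chains of C1q, which in the brain comes mainly from microglia and tags synapses for removal. C1qa had 51.3 and 52.3 CPM in vehicle-treated WT, 48.9 and 50.4 in E2-treated WT, 56.9, 58.6 and 56.2 in vehicle-treated Het-Met and 56.5, 52.6 and 53.4 in E2-treated Het-Met libraries. Every Het-Met library was above every WT library, by a small amount. The log2 difference was 0.14 ± 0.07 under vehicle and 0.12 ± 0.07 under E2, and averaged over treatments it was 0.13 ± 0.05, a 1.10-fold difference (limma, unadjusted p = 0.019, adjusted p = 0.208).

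C1qb had 54.9 and 44.9 CPM in vehicle-treated WT, 51.5 and 54.5 in E2-treated WT, 59.0, 57.8 and 54.8 in vehicle-treated Het-Met and 53.4, 55.1 and 58.5 in E2-treated Het-Met libraries. Vehicle-treated WT replicate 3 stood below the rest, and the genotypes overlapped under either treatment. Its difference under vehicle was 0.20 ± 0.09 (limma, unadjusted p = 0.039, adjusted p = 0.449), between 0.06 and 0.34 when single libraries were left out. C1qc had 49.5 and 44.2 CPM in vehicle-treated WT, 45.5 and 42.5 in E2-treated WT, 46.7, 50.8 and 47.5 in vehicle-treated Het-Met and 48.0, 45.6 and 42.8 in E2-treated Het-Met libraries. Its groups overlapped in every comparison, and its average difference between genotypes was 0.05 ± 0.06 (limma, adjusted p = 0.728).

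Aif1 had the highest difference between genotypes of all members under vehicle and in the average over treatments. It encodes IBA1, the actin-binding protein by which microglia are usually stained, and lies on chromosome 17 (mm10, 35170991 to 35176068, minus strand). It had 4.63 and 6.05 CPM in vehicle-treated WT, 4.94 and 4.86 in E2-treated WT, 8.97, 8.12 and 6.21 in vehicle-treated Het-Met and 6.17, 5.99 and 7.83 in E2-treated Het-Met libraries. Within each treatment all Het-Met libraries were above all WT libraries, although E2-treated Het-Met replicate 2 was just below vehicle-treated WT replicate 3. How many of all genes tested separate in this way was not counted. Group means were 5.34 ± 1.00 (SD, n = 2), 4.90 ± 0.056 (n = 2), 7.77 ± 1.41 (n = 3) and 6.66 ± 1.01 CPM (n = 3). The log2 difference was 0.50 ± 0.18 under vehicle (limma, unadjusted p = 0.012, adjusted p = 0.378) and 0.40 ± 0.18 under E2 (unadjusted p = 0.038, adjusted p = 0.407). Averaged over treatments it was 0.45 ± 0.12, a 1.36-fold difference (unadjusted p = 0.0025, adjusted p = 0.131), and between 0.36 and 0.54 when single libraries were left out. It rested on 100 to 189 reads per library, a counting error of 8.61%.

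Ctss, the lysosomal protease, had 53.2 and 58.4 CPM in vehicle-treated WT, 48.3 and 51.3 in E2-treated WT, 70.4, 61.7 and 58.1 in vehicle-treated Het-Met and 60.5, 61.9 and 51.6 in E2-treated Het-Met libraries. Under E2 the genotypes narrowly did not overlap, and under vehicle they did. The difference was 0.21 ± 0.10 under E2 (limma, unadjusted p = 0.046, adjusted p = 0.425) and 0.18 ± 0.10 under vehicle (adjusted p = 0.521). Irf8, a transcription factor of the microglial and monocyte lineage, had 4.35 and 4.16 CPM in vehicle-treated WT, 4.71 and 3.70 in E2-treated WT, 5.50, 5.80 and 4.92 in vehicle-treated Het-Met and 3.96, 3.87 and 4.98 in E2-treated Het-Met libraries. The vehicle-treated Het-Met libraries were high, with 1 E2-treated Het-Met library among them, and the difference for E2 in Het-Met was -0.31 ± 0.14 (limma, unadjusted p = 0.047, adjusted p = 0.888). Irf8 lies inside a longer gene model on the same strand, with which it shares 0 bases of exon. Lgmn (mean 117 CPM) and Mpeg1 (27.1 CPM), which encodes a pore-forming protein of macrophages, had all 4 intervals within 1.3-fold.

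**Figure D3:**
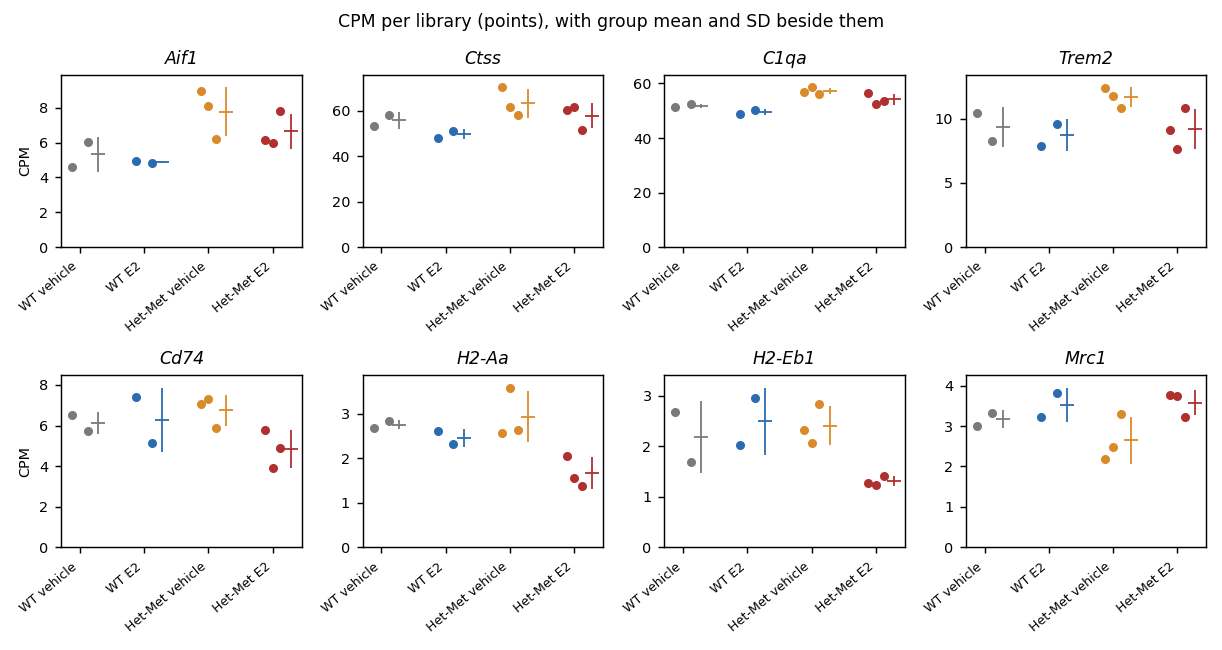
CPM (vertical axes, from 0) in each library for Aif1, Ctss, C1qa, Trem2, Cd74 and Mrc1 of the members and for the MHC class II genes H2-Aa and H2-Eb1, with the group mean and SD drawn beside the points (2 WT libraries and 3 Het-Met libraries per treatment). Within each treatment the Het-Met libraries were all above the WT libraries for Aif1 and C1qa, and the 3 E2-treated Het-Met libraries were the lowest of all 10 for H2-Aa and H2-Eb1. Such separations were not counted over all genes tested.

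Markers of perivascular or activated cells were low and uneven, apart from Cd68, which had a mean of 11.9 CPM and spanned 1.49-fold. Mrc1, the mannose receptor of perivascular macrophages, had 3.01 and 3.32 CPM in vehicle-treated WT, 3.23 and 3.83 in E2-treated WT, 2.18, 2.47 and 3.29 in vehicle-treated Het-Met and 3.77, 3.73 and 3.22 in E2-treated Het-Met libraries. The Het-Met groups overlapped through vehicle replicate 3 and E2 replicate 3, and the difference for E2 was 0.38 ± 0.16 (limma, unadjusted p = 0.030, adjusted p = 0.872). In WT it was 0.13 ± 0.20.

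Cd74, the invariant chain that carries MHC class II, had 6.52 and 5.75 CPM in vehicle-treated WT, 7.40 and 5.16 in E2-treated WT, 7.07, 7.32 and 5.89 in vehicle-treated Het-Met and 5.77, 3.92 and 4.88 in E2-treated Het-Met libraries. E2-treated Het-Met libraries lay below all vehicle-treated Het-Met libraries. The difference for E2 was -0.45 ± 0.16 in Het-Met (limma, unadjusted p = 0.015, adjusted p = 0.804) and 0.01 ± 0.20 in WT, and the interaction was -0.46 ± 0.26 (unadjusted p = 0.094, adjusted p = 1.00), so a difference between the genotypes in the response was not shown.

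Lyz2, lysozyme of macrophages and neutrophils, had 5.32 and 3.87 CPM in vehicle-treated WT, 6.69 and 4.86 in E2-treated WT, 6.74, 6.05 and 6.35 in vehicle-treated Het-Met and 5.77, 5.21 and 8.54 in E2-treated Het-Met libraries. Vehicle-treated WT libraries were below all vehicle-treated Het-Met libraries, with a difference of 0.45 ± 0.20 (limma, unadjusted p = 0.041, adjusted p = 0.451) that lay between 0.24 and 0.66 when single libraries were left out. Its near-identical copy Lyz1 had at most 3 reads. Cd14 had 1.25 and 1.39 CPM in vehicle-treated WT, 1.03 and 1.03 in E2-treated WT, 1.28, 1.61 and 2.27 in vehicle-treated Het-Met and 1.52, 1.34 and 1.90 in E2-treated Het-Met libraries. Its average difference between genotypes was 0.35 ± 0.15 (limma, unadjusted p = 0.036, adjusted p = 0.268), and the genotypes overlapped under vehicle but not under E2. Cd68, a lysosomal glycoprotein used to gauge phagocytic activity, had 12.2 and 10.3 CPM in vehicle-treated WT, 12.02 and 12.7 in E2-treated WT, 10.2, 12.9 and 12.2 in vehicle-treated Het-Met and 11.9, 10.05 and 14.9 in E2-treated Het-Met libraries. The groups of Cd68 overlapped in all comparisons, and its largest difference was 0.13 ± 0.17, for E2 in WT.

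Homeostatic and perivascular or activated genes were then set against each other in each library, as the mean log2(CPM + 0.5) of the 11 genes minus that of the 5 genes. This contrast was 2.45 and 2.54 in vehicle-treated WT, 2.29 and 2.46 in E2-treated WT, 2.45, 2.42 and 2.21 in vehicle-treated Het-Met and 2.42, 2.68 and 2.14 in E2-treated Het-Met libraries. Means were 2.50 ± 0.059 (SD, n = 2), 2.37 ± 0.12 (n = 2), 2.36 ± 0.13 (n = 3) and 2.41 ± 0.27 (n = 3). E2-treated Het-Met mice held both the highest and the lowest library, and the group means differed by less than the SD of that group. The homeostatic mean alone ran from 4.68 to 4.89 and the perivascular or activated mean from 2.20 to 2.54. E2-treated Het-Met replicates 2 and 3 were the extremes of both means, replicate 2 with the highest homeostatic and the lowest perivascular or activated mean and replicate 3 the reverse. The lower vehicle-treated WT library lay just above the highest vehicle-treated Het-Met library, and the groups overlapped in the other 3 comparisons of pairs. These values were not tested.

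Over all 36 members the mean log2(CPM + 0.5) was 4.11 and 4.06 in vehicle-treated WT, 4.06 and 4.04 in E2-treated WT, 4.17, 4.20 and 4.11 in vehicle-treated Het-Met and 4.16, 4.16 and 4.14 in E2-treated Het-Met libraries. The 6 Het-Met libraries lay above the 4 WT libraries by a narrow margin, and the same was seen for the 5 genes of lysosome, cytoskeleton and transcription, whose mean ran from 4.34 to 4.48 in WT and from 4.52 to 4.74 in Het-Met libraries. These means are descriptions without a test. By library, the highest value of a member fell in vehicle-treated Het-Met replicate 2 for 9 members, in replicate 1 for 8 and in E2-treated Het-Met replicate 2 for 7, and the lowest in E2-treated WT replicate 2 for 8 members and in replicate 1 for 7. Such counts were not made over all genes tested, so they cannot be set against genes at large. Of those genes, 8644 of 15081 were higher in Het-Met averaged over treatments.

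**Figure D4:**
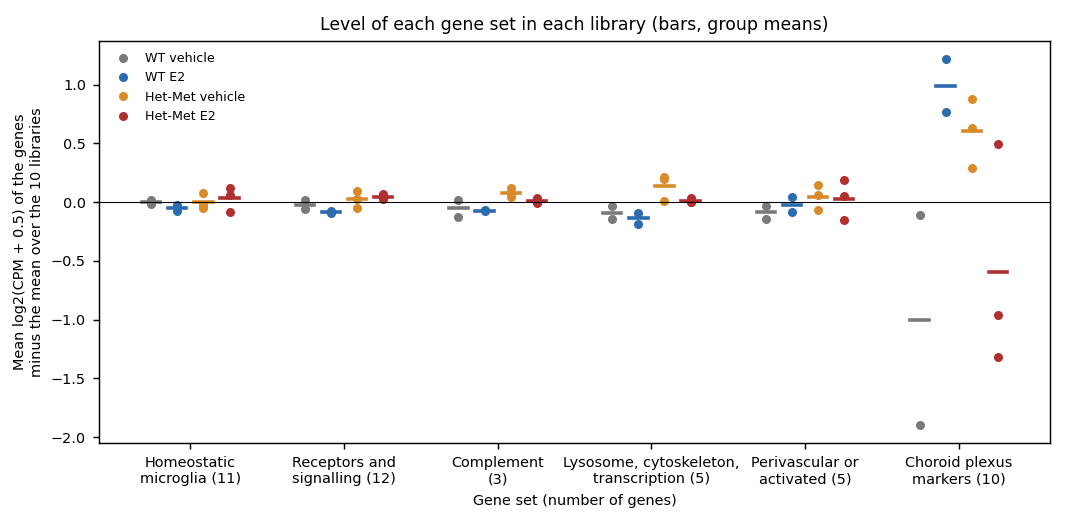
Mean log2(CPM + 0.5) of the genes of each role in each library (points), minus the mean over the 10 libraries, with bars for group means, and the choroid plexus markers on the same axis. The widest role, lysosome, cytoskeleton and transcription, spans 0.40 on this log2 scale, whereas the choroid plexus markers span 3.12.

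Genes of related programs were taken from lists, with 0 calls in each. For MHC class II, whose partner is Cd74, 2 of 6 genes had an unadjusted p under 0.05 for E2 in Het-Met mice, both lower, where 5.45% of all genes had one. The list's median difference was -0.13, with 2 genes higher and 4 lower. H2-Aa had 2.68 and 2.82 CPM in vehicle-treated WT, 2.60 and 2.32 in E2-treated WT, 2.56, 3.58 and 2.64 in vehicle-treated Het-Met and 2.06, 1.57 and 1.38 in E2-treated Het-Met libraries. H2-Eb1 had 2.68 and 1.68, 2.02 and 2.97, 2.32, 2.07 and 2.83, and 1.27, 1.24 and 1.42 CPM in the same order. For both genes the E2-treated Het-Met libraries were below all the others. The differences for E2 in Het-Met were -0.66 ± 0.17 (limma, unadjusted p = 0.0016, adjusted p = 0.668) and -0.67 ± 0.19 (unadjusted p = 0.0030, adjusted p = 0.710), on at most 71 and 69 reads. H2-Ab1, the partner chain of H2-Aa, had -0.12 ± 0.17 (adjusted p = 0.988), and its Het-Met groups overlapped. The other 3 genes had differences of -0.13 ± 0.10 (H2-DMa), 0.05 ± 0.25 (H2-DMb1) and 0.22 ± 0.15 (Ciita, the coactivator of MHC class II genes), with limma adjusted p-values of 0.964, 0.995 and 0.953. For E2 in WT mice 0 of the 6 genes had an unadjusted p under 0.05 (4.04% of all genes). In the interaction 1 of 6 had one (5.42% of all genes), and the smallest limma adjusted p was 0.674. A difference between the genotypes in the response was thus not shown for this list.

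Of 14 genes of disease-associated microglia, 11 could be tested and 0 were called, and Cst7, Itgax and Clec7a, which are raised in that state, stayed below the mean for testing. In the average over treatments, 2 of the 11 had an unadjusted p under 0.05, Lpl and Cst3, where 16.6% of all genes had one. The list's median difference between genotypes was 0.04, with 9 genes higher and 2 lower, where 8644 of 15081 genes were higher. Under vehicle it was 0.17, with 10 higher, 1 lower and 3 at an unadjusted p under 0.05 (10.7% of all genes). Under E2 it was 0.003, with 6 higher, 5 lower and 2 at that level (11.7%). The list's median E2 difference in Het-Met mice was -0.10, with 1 higher, 10 lower and 2 at that level (5.45%). In the interaction 1 was at that level (5.42%), so a different response was not shown. Lpl, lipoprotein lipase, had 55.8 and 59.5 CPM in vehicle-treated WT, 59.8 and 55.7 in E2-treated WT, 93.4, 71.0 and 80.2 in vehicle-treated Het-Met and 68.0, 72.7 and 72.9 in E2-treated Het-Met libraries. No Het-Met library overlapped with WT, and the difference averaged over treatments was 0.39 ± 0.07 (limma, adjusted p = 0.087). Cst3, cystatin C, had a difference of 0.22 ± 0.05 in the same average (limma, adjusted p = 0.122). Neurons and astrocytes also express these genes. Of the 6 border-associated macrophage genes tested, 3 were higher and 3 lower in Het-Met than in WT mice under vehicle, and 1 had an unadjusted p under 0.05 there (10.7% of all genes), as did 1 for E2 in Het-Met mice (5.45%) and 1 for E2 in WT mice (4.04%). Stab1, a scavenger receptor, had 17.1 and 15.0 CPM in vehicle-treated WT, 16.6 and 14.5 in E2-treated WT, 12.8, 13.5 and 11.6 in vehicle-treated Het-Met and 16.2, 15.8 and 16.5 in E2-treated Het-Met libraries. The vehicle-treated Het-Met libraries were below all the others, with a difference for E2 in Het-Met of 0.35 ± 0.10 (limma, unadjusted p = 0.0037, adjusted p = 0.710). Folr2, a folate receptor of these macrophages, had 0.370 and 0.595 CPM in vehicle-treated WT, 1.12 and 1.03 in E2-treated WT, 0.949, 0.454 and 0.974 in vehicle-treated Het-Met and 0.832, 0.784 and 1.19 in E2-treated Het-Met libraries, on 8 to 25 reads. The vehicle-treated and E2-treated WT libraries did not overlap, and those of Het-Met mice did. Its difference was 0.69 ± 0.27 for E2 in WT (limma, unadjusted p = 0.021, adjusted p = 1.00) and 0.38 ± 0.24 for Het-Met against WT under vehicle (adjusted p = 0.589), the opposite sign to Stab1. Cd163 had 0.979 to 2.24 CPM and Lyve1 0.617 to 1.39 CPM over the 10 libraries, without an unadjusted p under 0.05, and Pf4 was under the mean for testing.

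Only 2 of 9 cytokine and chemokine genes could be tested, and neither had an unadjusted p under 0.05. Of 6 ligands and contacts that other cells present to microglia, Cd47, the signal against engulfment, had a difference between genotypes of -0.23 ± 0.08 averaged over treatments (limma, unadjusted p = 0.011, adjusted p = 0.179), and Cx3cl1, the ligand of CX3CR1, ranged between 592 and 681 CPM. Of 21 myeloid regulators and shared receptors, 19 were tested. Mef2c, a factor of microglia that neurons also express, had a difference for E2 of -0.28 ± 0.12 in WT (limma adjusted p = 1.00) and of 0.36 ± 0.10 in Het-Met mice (adjusted p = 0.668), with an interaction of 0.64 ± 0.15 (adjusted p = 0.148). Spi1, which encodes PU.1, ran from 1.95 to 4.19 CPM on 42 to 83 reads and had no unadjusted p under 0.05.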

How the data were processed

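RNA from the vHpc was sequenced with a stranded library kit as 75-bp single-end reads. Reads were trimmed, filtered and aligned to mm10 with TopHat2 by the authors, who deposited CPM per gene symbol, and the processing notes of the submitters also name DESeq and DESeq2. Reads were counted with featureCounts, by the name of the deposited table, and the version and strand setting are not given in the sources used here. Every deposited CPM value was, within 0.001 read, a whole multiple of the value of 1 read (0.0430 to 0.0505 CPM by library), so reads were recovered for the count tests. Groups were taken from the sample labels. For the main test, log2(CPM + 0.5) was fitted for the 15081 genes that averaged 0.5 CPM or more, in limma 3.58.1 (R 4.3.3), with 4 group means over all 10 libraries and moderated variance with a trend. Tests were two-sided with Benjamini-Hochberg adjustment over all genes, and a call needed an adjusted p under 0.05 and a fold change over 1.3. Fold changes on this scale understate those of low genes. Values of every library were given for representatives of each role and for up to 3 members with the smallest unadjusted p per comparison. Fcrls, Irf8, Csf1, Il34, Cx3cl1, Spi1, Ciita, H2-DMa and H2-DMb1 were added after their values were seen. The members and lists were chosen with earlier results of these data known. The alternatives tried were other pseudocounts, filters, scalings and sets of libraries, a replicate block, a choroid plexus covariate, edgeR 4.0.16 and DESeq2 1.42.0 on recovered reads, and leaving out each library. Libraries of a group differed by more than sampling noise (chi-square per degree of freedom 3.29 to 13.5). A library pools animals, and how pools were drawn is not stated, so p-values measure the spread between libraries.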

Additional observations from a re-analysis of the deposited data

How the results depend on the processing

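The count of members called was 0 in all 7 comparisons under all alternatives that were run, and the smallest adjusted p of a member was 0.0699, for Aif1 in the average over treatments. No member named for a comparison changed sign. These members were named for a small unadjusted p in the same libraries, so a kept sign was nearly fixed in advance and adds no support. The numbers at an unadjusted p under 0.05 were less stable, and the cause was not tested. Only the larger changes, and those to or from 0, are listed by alternative. For E2 in WT mice (1 in the report) the number was 2 with the replicate block and with only the libraries compared, 3 with the choroid plexus covariate and 0 with DESeq2. For E2 in Het-Met mice (4) it was 2 with DESeq2 and 1 with the covariate. For genotype under vehicle (4) it was 2 without a filter, with quantile normalization, with the replicate block, with edgeR and with only the libraries compared, and 1 with DESeq2. For genotype under E2 (3) it was 1 with median-of-ratios scaling, quantile normalization, edgeR and the covariate, and 0 with DESeq2. For the interaction (1) it was 2 with the replicate block and the covariate and 0 with DESeq2. For the average E2 effect (1) it was 2 with quantile normalization, DESeq2 and the covariate, and for the average genotype effect (6) it was 2 with DESeq2. Leaving out single libraries gave 0 to 2, 0 to 5, 0 to 5, 0 to 4, 0 to 2, 0 to 3 and 2 to 7 in the order of these comparisons.

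The members' median log2 difference lay between -0.059 and -0.033, -0.020 and 0.068, 0.028 and 0.087, 0.091 and 0.120, -0.0091 and 0.078, -0.037 and 0.013, and 0.068 and 0.108 in that order when single libraries were left out. The median was 0.099 for the interaction with the replicate block and 0.068 for genotype under E2 with the covariate. It took the other sign in 5 alternatives for E2 in Het-Met, 1 for the interaction and 4 for the average E2 effect. Same-numbered vehicle-treated and E2-treated Het-Met libraries deviated from their group means with r of -0.124, 0.016 and -0.074. So few values cannot decide whether libraries of the same number share a batch or a pairing. The labels give only the number, so the replicate block was kept as an alternative. With 2 libraries in each WT group and 23 to 49 reads for the lowest member, small differences in low genes may have gone undetected. The part of depth in this was not tested.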
